A study of Homo sapiens with 6 samples.

Results

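Amino acid transporters are the solute carriers that move amino acids and related small molecules across the membranes of a cell. The transporters described here are the protein-coding genes of 7 solute carrier families, SLC1, SLC3, SLC6, SLC7, SLC36, SLC38 and SLC43. They were chosen by gene symbol with earlier results of these data known and number 60 of the 28395 genes in the count table. The data are bulk RNA-sequencing libraries of U251 (U251MG), an established human glioblastoma line kept in DMEM with serum. The series holds 3 libraries of WT cells, labelled with the WT genotype, and 3 libraries of NUAK2-CR cells, in which the kinase gene NUAK2 was targeted. The NUAK2-CR cells had been transduced with lentiviral vectors carrying Cas9, a NUAK2 guide and GFP or mCherry, sorted for both colours and grown out as clones. The sample labels name no clone, while the study's own files name clone CR-3 for analysis of this sequencing, and the labels do not say whether libraries of a group came from separate cultures. With 1 clone the effect of the edit and that of the clone cannot be told apart, which holds for every difference given here, and p-values measure the spread between these libraries, which may be technical.

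High-affinity glutamate transporters of the SLC1 family clear glutamate from the space around cells and, in the brain, are carried mainly by astrocytes. Heterodimeric carriers pair a heavy chain of the SLC3 family with a light chain of the SLC7 family. They exchange amino acids: cystine enters for glutamate through SLC7A11, and large neutral amino acids enter for glutamine through SLC7A5. Sodium-coupled SLC38 carriers take up or release glutamine, members of the SLC6 family carry taurine, creatine, glycine and neurotransmitters, SLC36 carriers move small amino acids with protons, and SLC43 carriers work by facilitated diffusion.

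Several of these genes are known targets of the amino acid response, in which ATF4 and its C/EBP partners bind a composite element. The element was searched as TGATGNAA on both strands of RefSeq's promoter windows, which run from 250 bases before to 50 bases after an annotated start. A gene can have several windows and was counted when any of them held the motif. The shares given here were not matched for the number of windows. Of the 45 members with a window, 6 held it (13.3%), against 4.46% of the 27305 genes with a window. All 6 were among the 25 tested members with a window, where 2.85% of the 11650 tested genes with one held it. The matches are shown because they fall in genes of different response, with ASNS, the asparagine synthetase gene, beside them as a known target. Capitals mark the match, each line runs 5′ to 3′ on the strand of the gene, and coordinates are those of GRCh38.p14. SLC1A4, SLC1A5, SLC3A2 and SLC38A1 were higher in NUAK2-CR, SLC7A1 was lower, and SLC1A3 did not pass the test.
SLC1A4, chr2:64989342-64989403, plus strand: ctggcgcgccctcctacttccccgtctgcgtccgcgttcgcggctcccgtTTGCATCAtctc
SLC1A5, chr19:46784894-46784961, minus strand: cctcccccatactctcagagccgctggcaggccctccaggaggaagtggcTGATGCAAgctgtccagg
SLC38A1, chr12:46266512-46266570, minus strand: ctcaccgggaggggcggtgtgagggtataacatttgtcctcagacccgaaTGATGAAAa
SLC3A2, chr11:62881725-62881748, plus strand: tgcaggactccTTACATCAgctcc
SLC7A1, chr13:29595663-29595692, minus strand: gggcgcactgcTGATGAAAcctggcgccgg
SLC1A3, chr5:36596338-36596385, plus strand: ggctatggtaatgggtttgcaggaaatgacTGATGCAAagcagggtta
ASNS, chr7:97872459-97872526, minus strand: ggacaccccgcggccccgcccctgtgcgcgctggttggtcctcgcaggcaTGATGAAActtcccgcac
The first base of the match lay at -7 from the start in SLC1A4 and at +8 in SLC7A1, both counted from the start of the MANE Select transcript, the reference transcript agreed between RefSeq and Ensembl. The windows of SLC1A5, SLC38A1 and SLC3A2 belong to other starts, 3780, 2527 and 803 bases downstream of the MANE Select start, and that of SLC1A3 to a start at -10018, upstream of it. SLC1A4 and SLC3A2 carry the element on the opposite strand of the gene, so the printed letters are its reverse complement. Among other motifs searched on both strands, the antioxidant response element TGACNNNGC was in 15.6% of the members' windows against 16.1% of all genes, and in 7 of 25 tested members against 19.2% of tested genes. The E-box CACGTG was in 22.2% of the members' windows against 8.77% of all genes, and in 8 of 25 tested members against 12.2% of tested genes. All 3 motifs were chosen after the values were seen, and a match is a description of letters, not a binding site.

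The libraries held 29648445 to 55574081 counts on genes, with the WT libraries the deeper (35310946 to 55574081). Counts were scaled by TMM factors to the mean effective library size, here called normalized counts, and 14873 genes with enough counts were tested with edgeR's quasi-likelihood test and Benjamini-Hochberg adjustment over all of them. NUAK2 itself had 1926, 1457 and 1580 normalized counts in WT replicates 1, 2 and 3 against 799, 961 and 849 in NUAK2-CR. This is a log2 fold change of -0.93 (SE 0.11, adjusted p = 1.8e-05), and its RNA stood at 52.6% of WT. The median log2 fold change over the tested genes nearest to NUAK2 was -0.44, so its neighbours were mostly lower as well. The part of this regional shift in the fall of NUAK2 was not tested. In bulk RNA, fewer cells of a kind and less RNA per cell cannot be told apart.

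In U251, 31 of the 60 members passed the filter on low counts and 29 did not. Of the 29, 8 had no count in any library and the other 21 reached at most 16 counts in a library. A count of 0 allows up to 3 counts, for counting error alone. Of the 31 tested members, 16 (51.6%) were higher in NUAK2-CR at an adjusted p under 0.05 and 8 (25.8%) were lower, while 7 did not pass. Over all tested genes 26.3% were higher and 28.2% lower, so the share of higher members lay above the background and the share of lower members near it. The median log2 fold change was 0.28 over the tested members and -0.01 over all tested genes, and the median size of the change without its sign was 0.67 against 0.37. No overlap between the groups was seen in 24 of the 31 members (77.4%), against 61.4% of all tested genes. Only SLC43A2 passed the filter through 1 group, WT, where it was the higher, and it is counted among the 8 lower members and the 24 without overlap.

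By the study's thresholds for a differentially expressed gene, which ask for a log2 fold change beyond 2 as well, SLC38A11 and SLC43A1 were higher and SLC1A2 and SLC43A2 were lower. All tested genes held 1.89% such higher genes and 2.83% such lower ones, against 12.9% of the tested members for both directions together. That share includes SLC43A2, which passed the filter through WT alone and cannot stand as a sign of an excess. With a log2 fold change beyond 1, 8 members were higher and 4 were lower. The share of all tested genes at this threshold was not taken, so these counts show neither an excess nor a lack. The families differed in make-up. In SLC6, 3 of 4 tested members were higher and 0 lower, in SLC38 5 of 9 were higher and 2 lower, in SLC43 2 of 3 were higher and 1 lower, and in SLC7 3 of 7 were higher and 2 lower. SLC1 had 2 higher and 2 lower of 5, SLC3A2 was the 1 tested SLC3 gene, and SLC36 had 1 lower of 2 and 0 higher. The median log2 fold change ran from -0.15 in SLC36 and 0.07 in SLC7 through 0.26 in SLC1, 0.28 in SLC38 and 0.33 in SLC3 to 0.78 in SLC6 and 1.50 in SLC43.

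**Figure D1:**
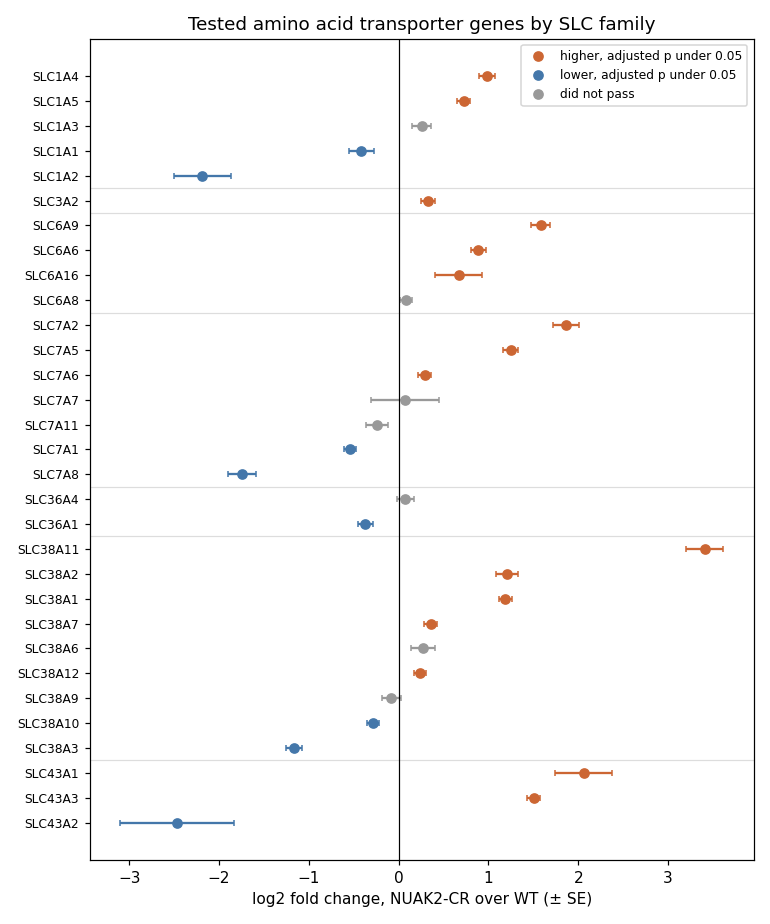
Log2 fold change of NUAK2-CR over WT (horizontal axis, bars ± SE) for the 31 tested members, grouped by SLC family from SLC1 at the top to SLC43 at the bottom, with colour marking the 16 higher, 8 lower and 7 that did not pass. SLC38A11 lies farthest right at 3.41 and SLC43A2 farthest left at -2.47.

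Levels can be set side by side between genes only per length, so normalized counts were also divided by the length of the MANE Select transcript, as CPM per kilobase. On this scale the highest WT members were SLC38A3 at 86.8 ± 10.4 (SD, n = 3) and SLC3A2 at 81.6 ± 6.64, which did not differ beyond their spread, followed by SLC1A5 at 59.1, SLC38A2 at 41.2 and SLC6A8 at 36.8. The highest members in NUAK2-CR were SLC3A2 at 102 ± 4.34, SLC1A5 at 97.5 ± 6.76 and SLC38A2 at 95.0 ± 3.95, whose spreads met, followed by SLC7A5 at 76.2 ± 6.59 and SLC43A3 at 43.7. SLC38A3 came eighth in NUAK2-CR, at 38.6 per kilobase. There were 34 members under 1 per kilobase in both groups, the monoamine carriers SLC6A2, SLC6A3 and SLC6A4 among them.

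**Figure D2:**
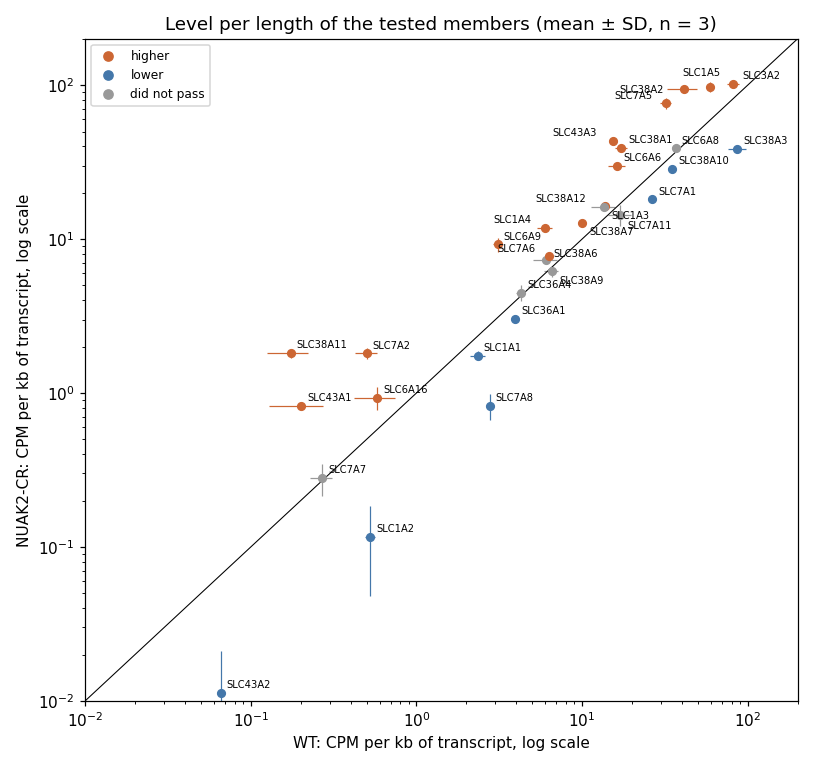
Level per length of the 31 tested members in WT (horizontal axis) and NUAK2-CR (vertical axis), both in CPM per kilobase of transcript on a log scale, with points at the mean of 3 libraries, bars ± SD and the line of equal level. SLC38A3 lies below the line near the top, from 86.8 to 38.6, and SLC38A11 lies far above it at a low level, from 0.17 to 1.82.

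SLC1A3 held most of the RNA of the glutamate uptake genes per length, and the other 2 tested uptake genes were lower in NUAK2-CR. SLC1A3 (GLAST or EAAT1), the glutamate transporter of radial glia and astrocytes, had 1615, 2251 and 2118 normalized counts in WT replicates 1, 2 and 3 against 2441, 2419 and 2287 in NUAK2-CR. The groups did not overlap, but WT replicate 1 lay well under the other WT libraries, and the log2 fold change of 0.26 (SE 0.11) did not pass the test (adjusted p = 0.0564). The value was 0.13 (adjusted p = 0.107) without WT replicate 1, and it passed without WT replicate 2, at 0.35 (adjusted p = 0.0164). SLC1A2 (GLT-1 or EAAT2), which carries most glutamate uptake in the adult forebrain, lies on chromosome 11 from 35251205 to 35420507 and had 217, 249.8 and 243 normalized counts in WT against 86.3, 44.6 and 26.3 in NUAK2-CR. Every NUAK2-CR library was far under every WT library, although the NUAK2-CR libraries differed among themselves, with replicate 1 the highest. SLC1A2 fell to 22.2% of WT, a log2 fold change of -2.19 (SE 0.31, adjusted p = 8.08e-05), while the median of the 100 tested genes nearest to it was -0.48.

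SLC1A1 (EAAT3), the transporter of glutamate, aspartate and cysteine found on neurons and epithelia, had 288, 353 and 333 normalized counts in WT against 254, 250.8 and 224 in NUAK2-CR. Its libraries did not overlap, and it fell by 0.42 on the log2 scale (SE 0.14, adjusted p = 0.0215). That call was lost without WT replicate 2 (log2 fold change -0.36, adjusted p = 0.0792), without WT replicate 3 (-0.40, adjusted p = 0.0607) and without NUAK2-CR replicate 3 (-0.36, adjusted p = 0.0781). The retinal and cerebellar forms SLC1A7 and SLC1A6 were not tested, with at most 7 counts. Per length, the summed level of the 5 uptake genes was 16.4 ± 2.56 (SD, n = 3) in WT and 18.1 ± 0.69 in NUAK2-CR, and the libraries overlapped. The share of SLC1A3 in that sum was 82.4 ± 1.14% in WT and 89.5 ± 0.35% in NUAK2-CR, that of SLC1A1 was 14.3% and 9.67%, and that of SLC1A2 was 3.23% and 0.64%.

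The neutral amino acid exchangers of the same family moved the other way. SLC1A5 (ASCT2), which takes up glutamine in exchange for other neutral amino acids, had 6171, 6184 and 6794 normalized counts in WT against 9878, 10416 and 11323 in NUAK2-CR, with all NUAK2-CR libraries above all WT libraries. It rose by a log2 fold change of 0.72 (SE 0.07, adjusted p = 4.65e-06). SLC1A4 (ASCT1), the exchanger of serine, alanine and cysteine, had 947, 970.5 and 1150.2 in WT against 1934, 1971 and 2154 in NUAK2-CR, again without overlap. Its log2 fold change was 0.98 (SE 0.09, adjusted p = 1.84e-06). Both genes carry the printed TGATGNAA match, as do SLC7A1, which was lower, and SLC1A3, which did not pass. The part of the match in these changes was not tested.

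**Figure D3:**
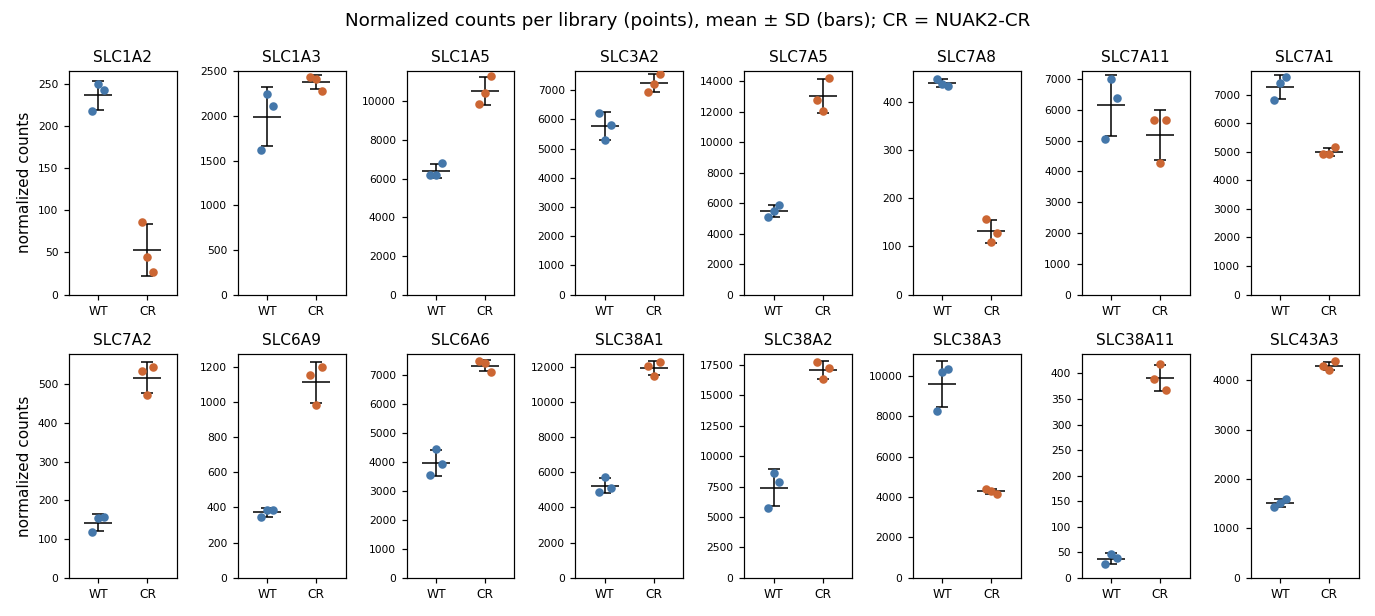
Normalized counts (vertical axes, each from 0) of 16 members in the 3 WT and the 3 NUAK2-CR (CR) libraries, 1 point per library with the mean and SD. In SLC1A2, SLC7A8, SLC7A1 and SLC38A3 all NUAK2-CR points lie under all WT points, in SLC7A11 the groups overlap, and in the other 11 all NUAK2-CR points lie above all WT points.

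The heterodimeric carriers shifted towards SLC7A5. SLC3A2 (4F2hc, CD98), the heavy chain that brings its light chains to the surface, had 6218, 5282 and 5816 normalized counts in WT against 6942, 7212 and 7554 in NUAK2-CR. Every NUAK2-CR library was above every WT library, and it rose by a log2 fold change of 0.33 (SE 0.07, adjusted p = 0.00273). SLC7A5 (LAT1), the carrier of leucine and other large neutral amino acids, had 5093, 5471 and 5889.5 in WT against 12793, 12029 and 14244 in NUAK2-CR. The lowest NUAK2-CR library was more than double the highest WT library, and the log2 fold change was 1.25 (SE 0.08, adjusted p = 9.78e-08). SLC7A5 has similar copies, so reads between them are uncertain. SLC7A5P2 had a mean of 37.6 in WT and 77.0 in NUAK2-CR (1.04, adjusted p = 0.00741), and SLC7A5P1 had 15.6 and 19.9 and did not pass.

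SLC7A8 (LAT2), a second light chain for neutral amino acids, had 448, 437 and 434 normalized counts in WT against 157, 109 and 128 in NUAK2-CR, and thus lay far lower in each NUAK2-CR library. Its log2 fold change was -1.74 (SE 0.15, adjusted p = 1.26e-06), to 29.9% of WT. SLC7A11 (xCT), which imports cystine for glutathione synthesis and releases glutamate, had 5062, 6981 and 6374 in WT against 5663, 4255 and 5659 in NUAK2-CR. Its groups overlapped, and its log2 fold change of -0.24 (SE 0.13, adjusted p = 0.126) did not pass the test. Without WT replicate 1, the lowest WT library, it passed at -0.36 (adjusted p = 0.00368), and it was -0.14 (adjusted p = 0.391) without WT replicate 2 and -0.12 (adjusted p = 0.465) without NUAK2-CR replicate 2. Of the other tested light chains, SLC7A6 (y+LAT2) rose by a log2 fold change of 0.29 and SLC7A7 (y+LAT1), at 17.3 to 27.9 normalized counts, did not pass (0.07, adjusted p = 0.889). SLC7A9, SLC7A10 and SLC7A13 were not tested, with at most 14 counts, and so was the other heavy chain, SLC3A1.

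Summed per length, the light chains of SLC3A2 stood at 58.5 ± 4.56 (SD, n = 3) in WT and 99.4 ± 8.41 in NUAK2-CR. The sum took SLC7A5, SLC7A6, SLC7A7, SLC7A8, SLC7A10 and SLC7A11, and left out SLC7A9 and SLC7A13. SLC7A5 made up 54.9% of that sum in WT and 76.7% in NUAK2-CR, SLC7A11 28.9% and 14.4%, SLC7A6 10.9% and 7.81%, and SLC7A8 4.76% and 0.83%. The level of SLC3A2 was 1.41 ± 0.22 times the summed light chains in WT and 1.03 ± 0.08 times in NUAK2-CR, with no overlap between libraries. RNA shares do not give the make-up of the carriers at the membrane, which was not measured.

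The cationic amino acid carriers, which take up arginine, lysine and ornithine without a heavy chain, changed in opposite directions. SLC7A1 (CAT1), the widely expressed form, had 6792, 7409 and 7601 normalized counts in WT against 4912, 4923 and 5164 in NUAK2-CR, all lower. It fell by 0.54 on the log2 scale (SE 0.07, adjusted p = 2.94e-05), a size close to the median of -0.48 over the 100 tested genes nearest to it on chromosome 13. SLC7A2 (CAT2), the inducible form, had 118, 153 and 157 in WT against 535, 472 and 545 in NUAK2-CR, all higher, with a log2 fold change of 1.86 (SE 0.15, adjusted p = 4.94e-07). The share of SLC7A2 in the summed level per length of the cationic carriers was 1.85 ± 0.18% (SD, n = 3) in WT and 9.06 ± 0.55% in NUAK2-CR, while the sum was 26.9 ± 1.59 and 20.0 ± 0.60. SLC7A3, SLC7A4 and SLC7A14 were not tested, with at most 4 counts.

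**Figure D4:**
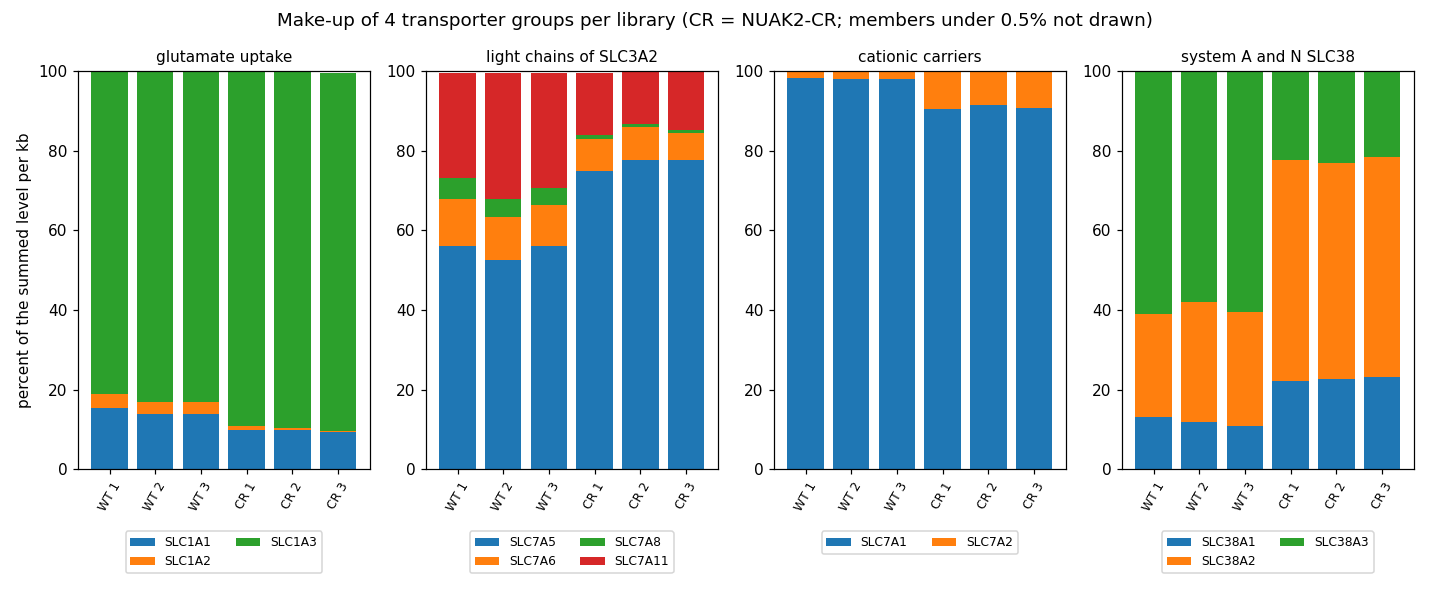
Share of each gene (percent of the summed level per length, vertical axes) in 4 groups of transporters, in each of the 3 WT and 3 NUAK2-CR (CR) libraries. SLC1A3 made up 82.4% of the RNA of the glutamate uptake genes in WT and 89.5% in NUAK2-CR. SLC7A5 made up 54.9% and 76.7% of the light chains of SLC3A2. SLC7A1 made up 98.1% and 90.9% of the cationic carriers, and SLC38A3 59.8% and 22.3% of the system A and N carriers.

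The SLC38 family held SLC38A3, one of the pair of members with the highest WT levels per length, which fell, and SLC38A11, the tested member with the largest log2 fold change. SLC38A3 (SNAT3), the system N carrier through which astrocytes release glutamine, lies on chromosome 3 from 50205271 to 50221486 and had 8282, 10224 and 10324 normalized counts in WT against 4389.7, 4283 and 4167 in NUAK2-CR. The NUAK2-CR libraries lay close together and all under the WT libraries. SLC38A3 fell to 44.5% of WT, a log2 fold change of -1.17 (SE 0.09, adjusted p = 2.93e-07).

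The system A carriers, which drive the uptake of glutamine and alanine with sodium, rose. SLC38A1 (SNAT1) had 4884, 5726 and 5093 normalized counts in WT against 12057, 11481 and 12255 in NUAK2-CR, which is a log2 fold change of 1.19 (SE 0.07, adjusted p = 6.81e-08). SLC38A2 (SNAT2), known to be induced when amino acids are short, had 5708, 8621 and 7917 in WT against 17722, 16321 and 17227 in NUAK2-CR. In both genes the groups were far apart, and in SLC38A2 WT replicate 1 lay under the other WT libraries. The log2 fold change of SLC38A2 was 1.21 (SE 0.12, adjusted p = 4.21e-06). SLC38A4, the third system A gene and the next of the same gene cluster on chromosome 12, was not tested: it had 0 counts in all 3 WT libraries and 11, 6 and 4 counts in NUAK2-CR replicates 1, 2 and 3.

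In the summed level per length of the system A and N genes, which was 145 ± 19.7 (SD, n = 3) in WT and 173 ± 5.38 in NUAK2-CR, SLC38A3 went from 59.8% to 22.3%, SLC38A2 from 28.2% to 54.9% and SLC38A1 from 11.9% to 22.7%. The libraries of the 2 groups did not overlap in any of these 3 shares. SLC38A11, a little studied member that lies on chromosome 2 from 164894354 to 164955525, had 26.6, 47.3 and 38.7 normalized counts in WT against 389.8, 418 and 368 in NUAK2-CR. Each NUAK2-CR library was many times any WT library. Its log2 fold change was 3.41 (SE 0.21, adjusted p = 5.34e-08), and a lncRNA on the opposite strand overlaps the whole gene, so that reads of the pair cannot be told apart where the counting does not use strand, as in the default of featureCounts.

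SLC38A9, the lysosomal arginine sensor upstream of mTORC1, had 556, 622 and 680.4 normalized counts in WT against 592, 625 and 537 in NUAK2-CR. The groups overlapped and the log2 fold change of -0.08 (SE 0.11, adjusted p = 0.547) did not pass. Of the remaining SLC38 genes, SLC38A7 (0.36, adjusted p = 0.000957) and SLC38A12, formerly TMEM104 (0.24, adjusted p = 0.00769), were slightly higher, SLC38A10 was slightly lower (-0.29, adjusted p = 0.00261), and SLC38A6 did not pass (0.28, adjusted p = 0.102). SLC38A12 and SLC38A10 lie in stretches of chromosome 17 whose nearest 100 tested genes had medians of -0.43 and -0.37. SLC38A5 and SLC38A8 were not tested, with at most 16 counts.

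In the SLC6 family, the glycine and taurine carriers rose and the creatine carrier did not pass. SLC6A9 (GLYT1), the glial glycine transporter, had 344, 387 and 386 normalized counts in WT against 1154, 980.5 and 1199.9 in NUAK2-CR, all higher. The log2 fold change was 1.58 (SE 0.10, adjusted p = 1.01e-07), while the median of the 100 tested genes nearest to it on chromosome 1 was -0.47 and CCDC24, which overlaps it on the opposite strand, had a log2 fold change of -0.08. SLC6A6 (TauT), the taurine transporter, had 3534, 4429.8 and 3926 in WT against 7452, 7395 and 7085 in NUAK2-CR, without overlap, and rose by a log2 fold change of 0.88 (SE 0.08, adjusted p = 2.16e-06).

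SLC6A8, the creatine transporter, had 5674, 5201 and 5399 normalized counts in WT against 5708, 5902 and 5646 in NUAK2-CR. The groups overlapped, and the log2 fold change of 0.08 (SE 0.07, adjusted p = 0.295) did not pass, in a stretch of the X chromosome whose nearest 100 tested genes had a median of -0.50. SLC6A8 has near-identical copies elsewhere in the genome and overlaps PNCK on the opposite strand (log2 fold change 2.15 from few counts), so its counts are uncertain. SLC6A16, an orphan member with a mean of 63.2 normalized counts in WT and 102 in NUAK2-CR, was higher by a log2 fold change of 0.67 (SE 0.26, adjusted p = 0.0449), although its libraries overlapped. The other 15 SLC6 genes, which include the GABA carriers SLC6A11 and SLC6A13 and the neuronal glycine carrier SLC6A5, were not tested and reached at most 14 counts.

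All 3 SLC43 genes passed the test, SLC43A2 after passing the filter through WT alone. SLC43A3, known as a carrier of purine nucleobases, lies on chromosome 11 from 57406954 to 57427580 and had 1434, 1518 and 1591 normalized counts in WT against 4279, 4208 and 4381 in NUAK2-CR. The libraries within each group lay close together, and the log2 fold change of 1.50 (SE 0.07) had the lowest adjusted p-value of all members (4.16e-09). A further annotated protein-coding gene on the same strand overlaps it over 17106 bases, so that reads between the pair are uncertain. SLC43A1 (LAT3), a carrier of branched-chain amino acids from the same stretch of chromosome 11, had 14.6, 15.4 and 26.9 in WT against 76.2, 80.8 and 76.8 in NUAK2-CR. It rose by a log2 fold change of 2.06 (SE 0.32, adjusted p = 0.000154), from a low level.

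SLC43A2 (LAT4), a related carrier of branched-chain amino acids, had 20.6, 20.3 and 19.3 normalized counts in WT against 0, 4.82 and 5.49 in NUAK2-CR, the latter from 0, 4 and 5 counts. Its log2 fold change was -2.47 (SE 0.64, adjusted p = 0.00565) and rests on few counts. Without NUAK2-CR replicate 1, the library at 0, it was -1.92 (adjusted p = 0.0158). In the SLC36 family, SLC36A1 (PAT1), the lysosomal carrier of small amino acids, had 877, 836 and 836 normalized counts in WT against 629, 675 and 667 in NUAK2-CR, all lower. It fell by 0.37 on the log2 scale (SE 0.08, adjusted p = 0.00243), beside a median of -0.26 over its nearest 100 tested genes. SLC36A4 did not pass (0.07, adjusted p = 0.548), and SLC36A2 and SLC36A3 were not tested, with at most 2 counts.

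Genes around amino acid transport were described by lists, with counts against the same background of 26.3% higher and 28.2% lower. The lists were chosen with earlier results of these data known. In the amino acid response, where ATF4 and its partners induce transporters and synthetases, 12 of 13 genes were higher and 1 lower, with a median log2 fold change of 0.87. NUPR1, a small stress-induced nuclear protein, rose most in this list (3.17), followed by CHAC1, which degrades glutathione (1.87), the pseudokinase TRIB3 (1.48), ASNS (1.26), the mTORC1 inhibitor DDIT4 (1.26) and the transcription factor ATF3 (1.10). ASNS had 765, 700.4 and 824 normalized counts in WT against 1713, 1680.0 and 2087 in NUAK2-CR, with no overlap. EIF2AK4 (GCN2), the kinase that senses uncharged tRNA, was the 1 lower gene of the list (-0.70), named after its value was seen.

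Enzymes of glutamate and glutamine were mixed, with 5 of 17 tested genes higher, 5 lower and a median of 0.17. GPT, an alanine aminotransferase at a mean of 51.7 normalized counts in WT, rose by a log2 fold change of 1.69, beside ASNS. GLUL, glutamine synthetase, named after its value was seen, had 8433, 8713 and 8837 in WT against 4721, 4693 and 4706 in NUAK2-CR. It fell by 0.88 on the log2 scale (SE 0.06, adjusted p = 1.85e-07), beside a median of -0.48 over its nearest 100 tested genes. GPT2 (0.90) and PSAT1 (0.88), also named after their values were seen, rose by a similar size. Of the 3 glutathione synthesis genes, 1 was lower and 2 did not pass.

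Among the 27 genes of amino acid sensing by mTORC1, 9 were higher and 8 lower (median -0.02), and SESN3, a sestrin, was lower by a log2 fold change of -1.47. Of the 7 tested partners of transporters, 2 were higher and 3 lower. CD44, which associates with SLC7A11 at the membrane, fell (-1.55), and so did TXNIP, an arrestin that promotes the internalization of glucose transporters (-1.12). Of 15 tested other amino acid carriers, 3 were higher and 6 lower. SLC25A18, a mitochondrial glutamate carrier at a mean of 117 normalized counts in WT, fell (-1.21). SLC25A22, also a mitochondrial glutamate carrier, was named after its value was seen. It had a mean of 2072 in WT and did not pass (-0.09, adjusted p = 0.393). SLC16A10 (TAT1), the carrier of aromatic amino acids, was higher by 1.13 at a mean of 16.8 normalized counts in WT, a call lost without WT replicate 1 or 3 or NUAK2-CR replicate 1 or 2 (adjusted p = 0.0503, 0.0816, 0.0609 and 0.101).

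**Figure D5:**
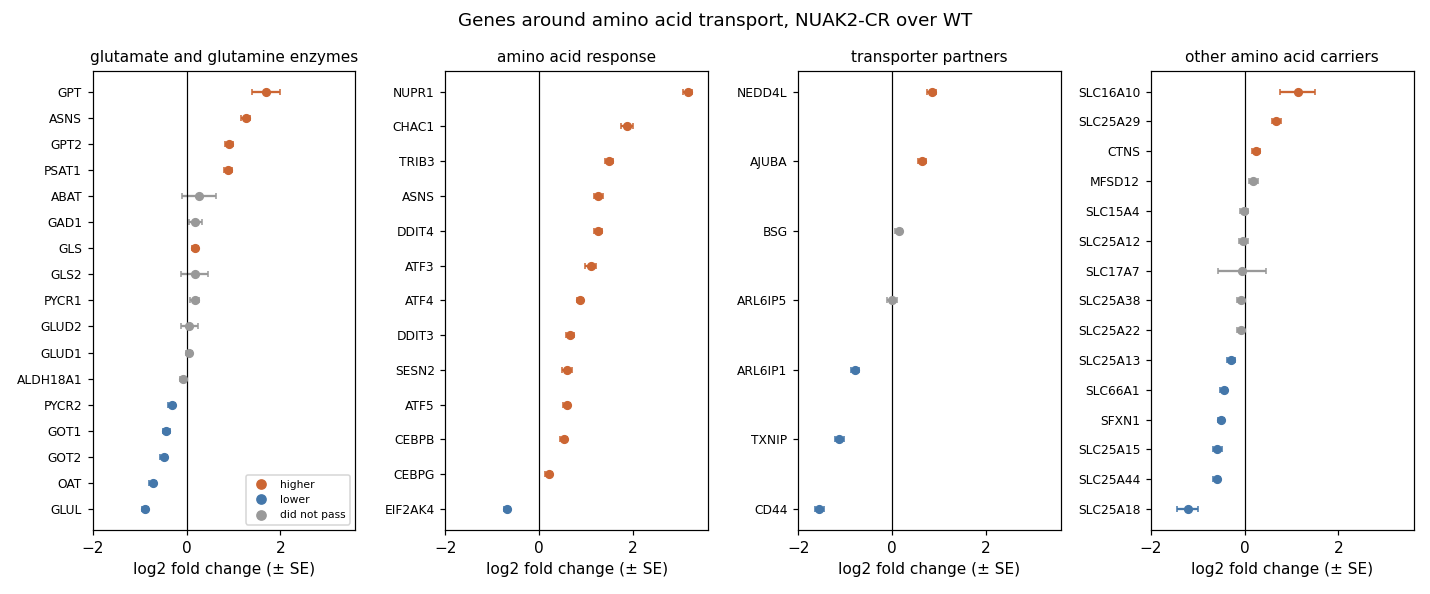
Log2 fold change of NUAK2-CR over WT (horizontal axes, bars ± SE) for the tested genes of 4 lists around amino acid transport, with colour marking the call. In the amino acid response 12 of 13 genes lie right of 0, from CEBPG near 0.20 to NUPR1 at 3.17, while the other 3 lists lie on both sides.

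Of the 20 cytosolic aminoacyl-tRNA synthetases, 6 were higher and 7 lower, with a median of -0.08. CARS1 is counted among the 6 and VARS1 among the 7, although both calls rest on 1 library each. Each reached the filter level in every library only of the group where it was higher. CARS1 had 33.0 and 32.6 normalized counts in NUAK2-CR replicates 1 and 2 but 223 in replicate 3, and its log2 fold change of 2.51 became 0.94 (adjusted p = 0.129) without replicate 3. VARS1 had 15.4 and 11.8 in WT replicates 2 and 3 but 364 in replicate 1, and its log2 fold change of -3.49 became -0.20 (adjusted p = 0.794) without replicate 1.

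Cell type markers were checked beside these results. The labelled astrocytoma line held most of the astroglial and glioma markers. Of the 9 tested ones, 7 were lower in NUAK2-CR, 0 were higher and 2 did not pass. The 2 were SOX9 (-0.14, adjusted p = 0.159) and ALDH1L1 (0.91, adjusted p = 0.1185). ALDH1L1 was near the floor, at a mean of 9.11 normalized counts in WT and 17.3 in NUAK2-CR, without overlap. GFAP, the astrocyte filament, fell by 2.56 on the log2 scale from a mean of 88323 normalized counts, S100B fell by 2.60, SOX2 by 1.11 and the progenitor filament nestin (NES) by 1.56, while AQP4 reached at most 2.15 normalized counts. The summed level of the list, in normalized counts not divided by length, ran from 334046 to 370829 in WT and from 146848 to 153601 in NUAK2-CR. Most of it came from CD44, VIM and GFAP, with WT means of 121881, 99737 and 88323. Among genes that astrocytes use, SLC1A2, SLC38A3 and GLUL were lower, as 7 of these markers were. SLC1A3 (0.26) did not pass and SLC6A9 (1.58) was higher, and the part of the markers in those results was not tested.

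Of the 18 markers of other cells, 10 were tested, with 4 higher, 2 lower and 4 that did not pass. MOG, OLIG2, AIF1, CX3CR1 and P2RY12, which define oligodendrocytes and microglia, were at 0 in every library, and PTPRC reached at most 2.89 normalized counts. Of the 4 neuronal markers SNAP25 was higher (3.56), TUBB3 was lower (-0.49), and SYP (0.28) and RBFOX3 (-0.68) did not pass. The endothelial VWF was higher (1.69). PECAM1, with 2, 0 and 0 counts in WT against 12, 14 and 14 in NUAK2-CR, is counted among the 4 higher markers. It passed the filter on low counts through NUAK2-CR alone, where it was the higher, and cannot stand as a sign of an excess. The epithelial KRT18 was higher (0.64), while the myelin gene MBP was lower (-1.99). The list summed to 18381 to 22077 normalized counts in WT and to 17334 to 18629 in NUAK2-CR, most of it from TUBB3 and KRT18, and to 273 to 309.7 and 886 to 1024 without that pair.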

How the data were processed

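RNA from 3 WT and 3 NUAK2-CR libraries of U251 was isolated with TRIzol and sequenced after library preparation with a stranded mRNA kit from Illumina. Per the labels and the methods, the authors used Trimmomatic for trimming, HISAT2 for alignment to hg38 and featureCounts for counting, with default parameters, and the deposited table holds raw counts per gene. The annotation is not given in the sources used here. The default of featureCounts does not use strand, so overlapping genes are uncertain. The deposited values were whole-number counts with no normalization.

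Identifiers were matched to symbols through RefSeq for 27745 of 28395 genes. Groups were taken from the labels. Counts were analysed in R 4.3.3 with edgeR 4.0.16 (filterByExpr, TMM, glmQLFit, glmQLFTest, prior count of 0.125) with Benjamini-Hochberg adjustment over the 14873 tested genes and a threshold of 0.05. The common BCV was 0.101. The pipeline was tested on simulated data. Levels per length used MANE Select lengths from GENCODE. Regional medians took the 100 tested genes nearest by start. Tables were made with pandas 2.3.3 and figures with matplotlib 3.10.9, under Python 3.11.15.

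Members named with the value in every library were those called with an absolute log2 fold change over 1 and a group mean that reached 100 normalized counts, and 18 main carriers. Genes of lists were named when called with an absolute log2 fold change over 1. The members and lists were chosen with earlier results of these data known. No libraries were found to be copies of each other. Alternatives were DESeq2 1.42.0, RLE and library-size scaling, no filter, at least 10 counts in every library, a prior count of 2, a lower fold threshold, a replicate block and each library left out in turn. Replicate numbers did not pair the libraries. The depth of 29648445 to 55574081 counts per library limits statements on genes with few counts, and intervals of a count of 0 cover counting error only.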

Additional observations from a re-analysis of the deposited data

How the results depend on the processing

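The numbers of members higher and lower stayed within 1.5 times of 16 and 8 under DESeq2, RLE and library-size scaling, both other filters, the replicate block and each library left out (15 to 17 higher and 7 to 9 lower in the latter), with 18 higher and 9 lower when no filter was used. The log2 fold change of NUAK2 ran from -1.02 to -0.80 when a library was left out. With the replicate block 17 members were higher and 8 lower, the change of NUAK2 was -0.92, and SLC1A3 passed (0.27, adjusted p = 0.0262). Same-numbered libraries did not deviate together (r of 0.04, -0.04 and 0.05), so the numbers are read as names only.

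The 2 higher and 2 lower members with a log2 fold change beyond 2 were less stable. Of the lower ones, 1 was left with at least 10 counts in every library, where SLC43A2 was not tested. With a prior count of 2, 1 higher and 1 lower were left, since SLC43A1 came to 1.95 and SLC43A2 to -1.999, just inside the threshold. With a log2 fold change beyond 1 there were 8 and 4, given without a share over all tested genes. With a library left out there were 1 to 2 higher and 1 to 2 lower: SLC43A1 was 1.89 without WT replicate 1 and 1.94 without WT replicate 2, SLC43A2 was -1.92 without NUAK2-CR replicate 1, and SLC1A2 was -1.85 without NUAK2-CR replicate 3. Of 298 values of 23 named members under the alternatives, 288 kept the direction and the side of the threshold, 3 lost the call (SLC1A1), 7 gained it (SLC1A3 under DESeq2, library-size scaling, no filter, the replicate block and without WT replicate 2, and SLC7A11 under no filter and without WT replicate 1) and 0 changed sign. Depth limits the 29 members that were not tested.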
